A study of Danio rerio with 9 samples.

Results

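The genes described here are those that were abundant in some intestine libraries of a zebrafish study and nearly missing from others. Genes were chosen by their counts: a gene was taken when it reached 10 CPM (its count scaled to a common column total of 1000000) in at least 2 of 9 libraries while at least 1 library held a count of 2 or fewer. The rule found 39 genes of 26983 in the count table, and 10715 genes met the condition on CPM alone. A library was called on for a gene at 10 CPM or more, which was 345 to 363 counts here, off at a count of 2 or fewer, and between otherwise. The rule read the counts of every library, so the levels of the 39 genes are a description, and no count over them supports a difference between groups.

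The libraries came from intestine of zebrafish (Danio rerio), with 3 libraries each in the groups coded D3, SBM and FM. The study title names an enteritis brought on by soybean meal and β,β-dimethylacryloyl shikonin, an ester of a plant pigment, but no label explains the codes or ties a diet or compound to a group. They give no strain, age, sex, dose or time, and do not say whether a library is 1 fish or a pool, so any p-value measures only the spread between these libraries, which may be technical. Total counts were 34436497 to 36203230 per library. The epithelial markers of the labelled tissue were found in each library. Their 15 listed genes took 1.08 to 2.12% of counts in D3, 1.31 to 1.79% in SBM and 1.91 to 2.53% in FM. The 15 exocrine pancreas markers took more, at 7.52 to 13.66% in D3, 11.01 to 15.35% in SBM and 13.72 to 17.70% in FM. Their share was above the epithelial share in every library. The part of pancreas tissue in these libraries was not tested.

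In zebrafish the intestine lies close to the pancreas, the liver and the gonads. An egg stores transcripts that the embryo uses before its own genes start, and the liver makes most secreted plasma proteins. Fish genomes also hold families of immune genes, such as those of the major histocompatibility complex (MHC), whose copies differ in number and kind between individuals.

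D3 library 3 and SBM library 1 stood apart from the rest of their groups in ovary and oocyte markers and resembled each other. Across genes, their deviations from their own group means correlated at 0.708 (Pearson, a description over genes, which are not independent). Between whole libraries of a group, by chi-square per degree of freedom, D3 library 3 was 416 and 581 from D3 libraries 1 and 2, which were 255 apart. SBM library 1 was 446 from SBM library 2 and 306 from SBM library 3, and these were 358 apart. This measure was not taken across groups, so it does not bear on the resemblance of D3 library 3 and SBM library 1. The 23 ovary and oocyte markers found took 0.827% of counts in D3 library 3 and 0.775% in SBM library 1. They took 0.045 and 0.0485% in the other D3 libraries, 0.0242 and 0.113% in the other SBM libraries and 0.00759 to 0.0231% in FM. None of those 23 markers was at 0 in any library. The 18 liver markers, none at 0, were high in 3 other libraries, namely D3 library 1 at 2.55%, D3 library 2 at 7.91% and SBM library 2 at 4.19%. They took 0.417% in D3 library 3, 0.717 and 0.237% in the other SBM libraries and 0.435 to 0.774% in FM. Whether D3 library 3 and SBM library 1 were exchanged cannot be told, and why they share their makeup was not tested. With or without an exchange, D3 and SBM each hold 1 library rich in ovary markers. The gene si:dkey-18p12.4 had a count of 0 in D3 library 3 and 325 in SBM library 1. Under an exchange it would not be off in all of D3. The rule applied without this pair of libraries kept 17 of the 39 genes and added none, and si:dkey-18p12.4 was then again the 1 gene off in all of D3 and on in all of FM. In such bulk samples, fewer cells of a type and less RNA per cell cannot be told apart either.

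The number of genes on was 9, 11 and 19 in the D3 libraries, 25, 14 and 4 in the SBM libraries and 2, 2 and 4 in the FM libraries. The number off was 6, 6 and 5 in D3, 1, 5 and 4 in SBM and 6, 3 and 24 in FM. FM library 3 held 24 of the 33 off values of FM, and SBM library 1 held 25 of the 43 on values of SBM. The values on numbered 39 in D3, 43 in SBM and 8 in FM, of 117 in each group. Of the 39 genes, 35 were on in some D3 library, 37 in some SBM library and 5 in some FM library. Being off was rarely shared by a group: 1 gene, si:dkey-18p12.4, was off in all 3 libraries of D3, and no gene was off in all 3 of SBM or of FM.

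**Figure D1:**
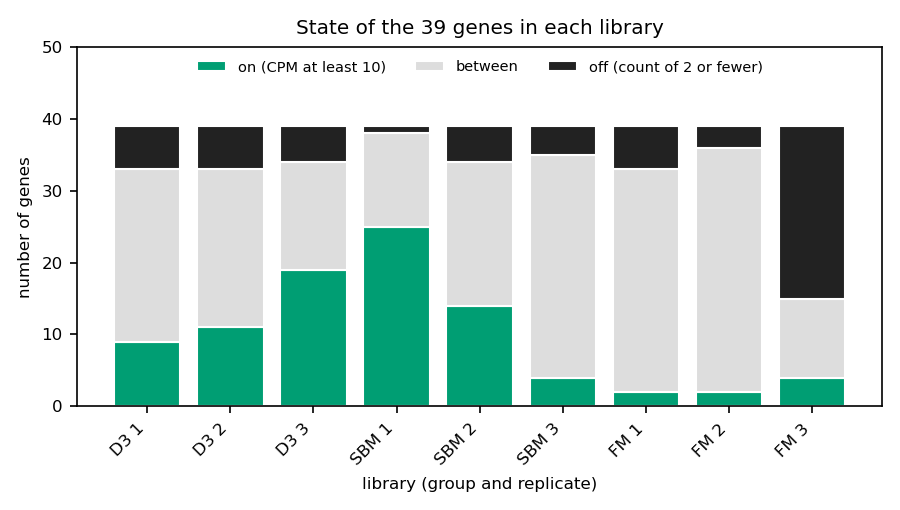
Number of the 39 genes that were on, between or off in each library, with D3 left, SBM in the middle and FM right; bars add up to 39. FM library 3 had 24 genes off, and SBM library 1 had 25 on and 1 off.

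The on libraries sorted the genes into 3 sets. A set of 19 genes was on in D3 library 3 and SBM library 1 alone, 13 genes were on only within D3 library 1, D3 library 2 and SBM library 2, and 7 genes had other patterns. Only a few genes behaved as a switch. When the 9 counts of a gene, each plus 1, were put in order, the largest ratio between neighbours had a median of 8.29 in the set of 19 and 4.83 in the set of 13, against 107 in the 7 others. It passed 20 in 4 genes, rnasel2, si:dkey-18p12.4 and the MHC class II genes mhc2dga and mhc2dgb. The sets of 19 and 13 were graded instead, with 5 or 6 of the 9 libraries between on and off for every gene. These sets and this ratio were chosen after the values were seen.

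**Figure D2:**
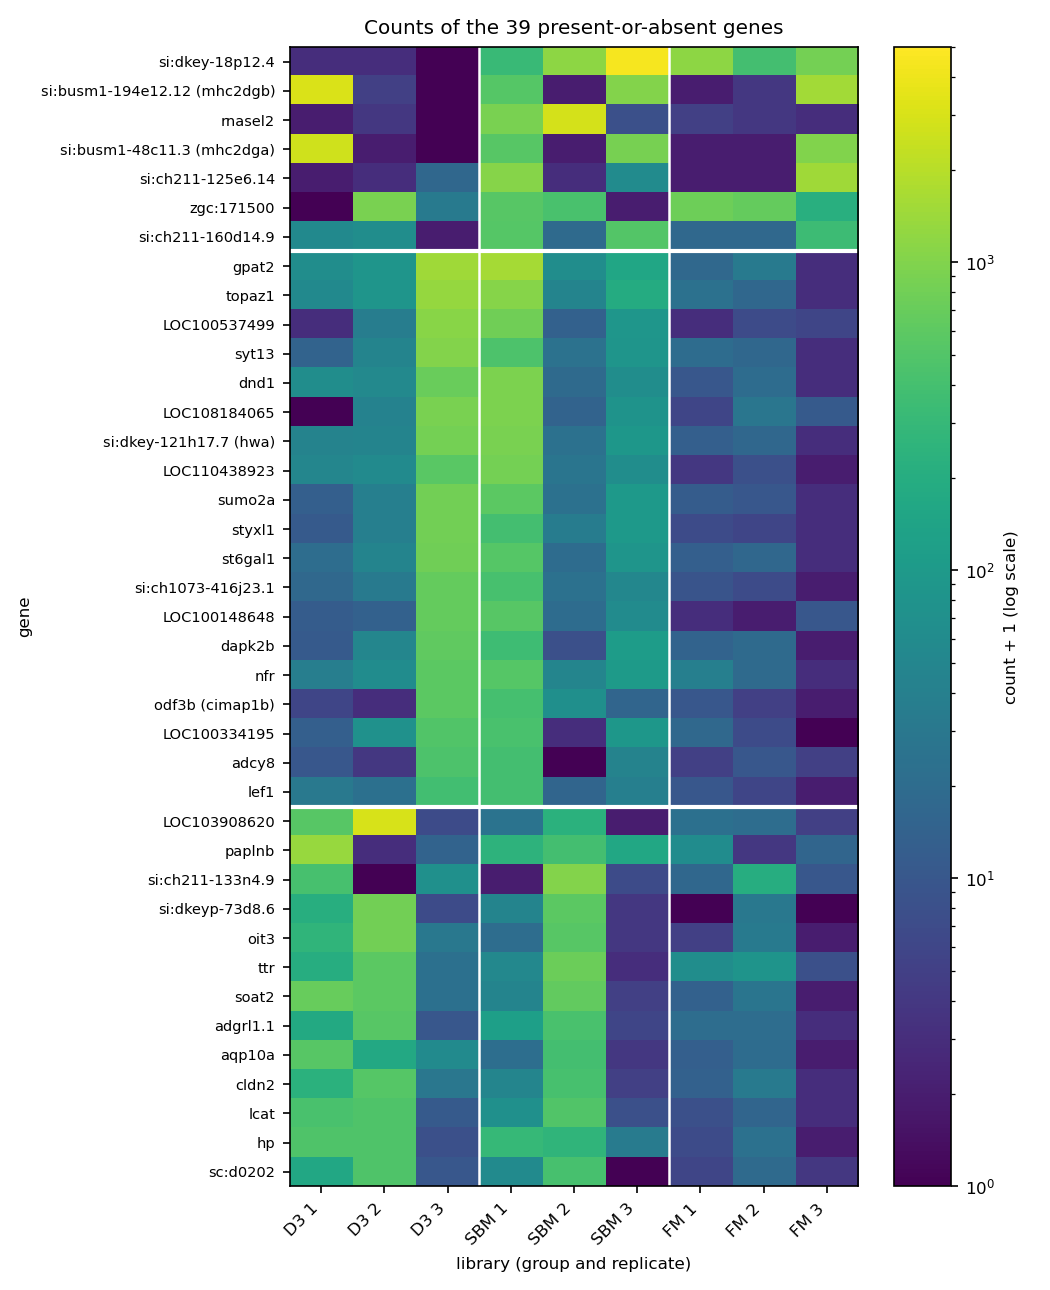
Counts plus 1 (colour, log scale) of the 39 genes (rows) in the 9 libraries (columns). White lines separate the 7 genes with other patterns (top), the 19 on in D3 library 3 and SBM library 1 (middle), the 13 on within D3 library 1, D3 library 2 and SBM library 2 (bottom), and the 3 groups; the upper block holds the 4 genes with a step over 20-fold, and levels in the lower blocks are graded.

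In the set of 19, the highest CPM, which is not corrected for gene length, belonged to gpat2, which encodes a mitochondrial enzyme of glycerolipid synthesis, and topaz1, a germ cell gene whose mouse counterpart is needed in male meiosis. The counts of gpat2 were 63, 84 and 1476 in D3, 1607, 65 and 152 in SBM and 17, 32 and 2 in FM. Those of topaz1 were 56, 85 and 1281 in D3, 1050, 46 and 186 in SBM and 23, 16 and 2 in FM. Both genes were high in the same pair of libraries, next in SBM library 3, and lowest in FM library 3. Per length, the highest values of the set were those of sumo2a at 24.7 FPKM and LOC108184065 at 24.5 FPKM, against 15.2 FPKM for gpat2 and 7.22 FPKM for topaz1, each in its highest library.

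Known egg and germ cell genes were part of the set of 19, and the way the set was drawn fixes the pair of libraries in which they were high. The gene dnd1 encodes an RNA-binding protein that zebrafish germ cells need to survive, and it had counts of 64, 54 and 722 in D3, 924, 18 and 63 in SBM and 9, 19 and 2 in FM. The gene listed as si:dkey-121h17.7 is hwa (huluwa) in RefSeq, a gene whose maternal product sets up the dorsal side of the zebrafish embryo. Its counts were 44, 46 and 833 in D3, 907, 23 and 91 in SBM and 12, 16 and 2 in FM. Outside the pair of high libraries, no count exceeded 64 for dnd1 or 91 for this gene.

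The rest of the set of 19 includes genes with broader known uses. They are syt13 of the synaptotagmin family, the sialyltransferase gene st6gal1, the pseudophosphatase gene styxl1, the small ubiquitin-like modifier gene sumo2a, the kinase gene dapk2b, the adenylyl cyclase gene adcy8 and lef1, a transcription factor of Wnt signalling. The gene listed as odf3b, now cimap1b in RefSeq, stands in the testis marker list and had counts of 5, 2 and 583 in D3, 398, 68 and 15 in SBM and 9, 4 and 1 in FM. The 17 testis markers found, odf3b included, were also highest in that pair, at 0.0157% of counts in D3 library 3 and 0.0147% in SBM library 1. They took 0.00127 and 0.0015% in the other D3 libraries, 0.00751 and 0.00217% in the other SBM libraries and 0.00036 to 0.00093% in FM. Of these markers, amh, dmc1, dmrt1, insl3, spata4, sycp2 and tssk6 were at 0 in some library. RefSeq lists nfr as a long noncoding RNA gene. The uncharacterised si:ch1073-416j23.1 and LOC100148648, LOC100334195, LOC100537499, LOC108184065 and LOC110438923 complete the set.

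Over the 19 genes the median count was 14, 45 and 722 in the D3 libraries, 535, 23 and 85 in the SBM libraries and 9, 9 and 2 in the FM libraries. In all 19, D3 library 3 and SBM library 1 were the 2 highest, which the way the set was drawn fixes. SBM library 3 was the third highest in 17 of the 19, and FM library 3 was off in 15. The summed level of the 19 genes was 13.1, 23.3 and 410 CPM in D3, 352, 13.5 and 45.9 CPM in SBM and 6.42, 6.55 and 1.42 CPM in FM. The ovary and oocyte markers, none of which is among the 39 genes, had the same 3 highest libraries and the same lowest one. The way the set was drawn fixes the 2 highest. The rule took each gene through an off library, FM library 3 among them in 15 of the 19, which favours it as the lowest. Nothing is read from those parts of the match. The part of ovary and oocyte RNA in the levels of these genes was not tested.

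**Figure D3:**
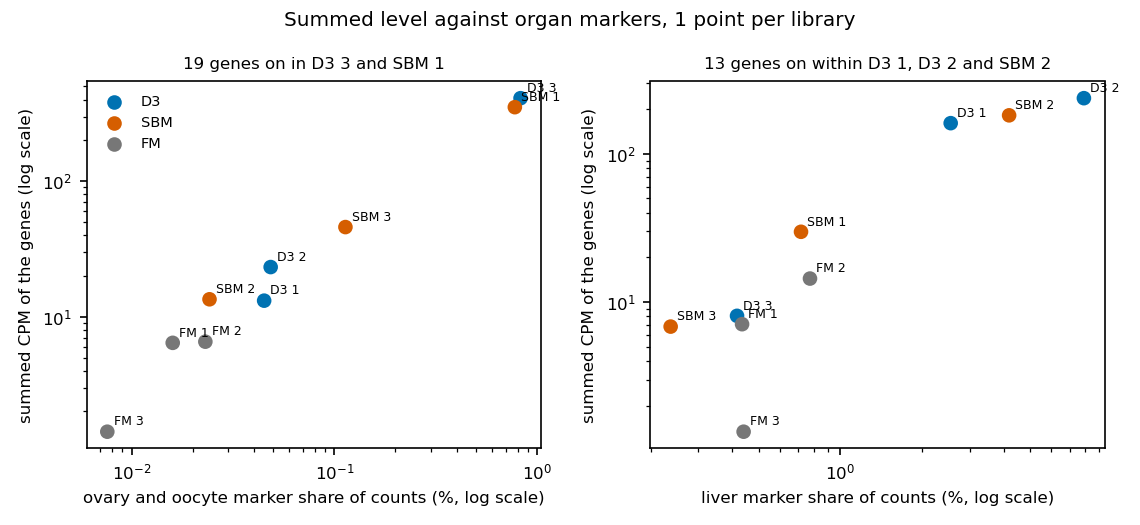
Summed CPM of the 19 genes against the ovary and oocyte marker share of counts (left), and of the 13 genes against the liver marker share (right), 1 point per library on log axes, coloured by group. FM library 3 is lowest in both sums, at 1.42 and 1.33 CPM; the points share a library, and its depth, between both axes.

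The set of 13 included genes of plasma proteins and of lipid handling. The gene ttr encodes transthyretin, the thyroid hormone carrier of plasma, and had counts of 203, 593 and 22 in D3, 52, 727 and 2 in SBM and 65, 82 and 7 in FM. The haptoglobin gene hp, whose protein binds free haemoglobin, had 472, 486 and 7 in D3, 304, 262 and 34 in SBM and 6, 23 and 1 in FM. For hp, SBM library 1 exceeded SBM library 2, so this gene did not keep to the 3 libraries rich in liver markers.

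Of the cholesterol-esterifying enzymes, lcat works on lipoproteins in plasma and soat2 inside cells of liver and gut. The counts of soat2 were 680, 583 and 22 in D3, 46, 638 and 4 in SBM and 13, 26 and 1 in FM. Those of lcat were 428, 484 and 10 in D3, 71, 497 and 7 in SBM and 7, 15 and 2 in FM. These were the only genes of the set on in all 3 liver-rich libraries. For both the other 6 libraries lay below all 3, which the way the set was drawn fixes.

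Channel and junction genes were part of the set as well. The aquaglyceroporin gene aqp10a had counts of 539, 171 and 57 in D3, 21, 385 and 3 in SBM and 12, 19 and 1 in FM. The gene cldn2, of a claudin that forms pores in tight junctions, had 231, 530 and 28 in D3, 47, 419 and 4 in SBM and 13, 31 and 2 in FM. In both genes the liver-rich libraries lay above all 6 others, and D3 library 3 lay above each FM library for aqp10a but not for cldn2.

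The highest level in the set was that of LOC103908620, a gene with no current RefSeq match, with counts of 546, 2945 and 6 in D3, 25, 228 and 1 in SBM and 22, 20 and 4 in FM. The gene oit3, whose mammalian counterpart is made in the liver, reached 804 in D3 library 2 and 544 in SBM library 2 and was at 1 in FM library 3. The uncharacterised si:dkeyp-73d8.6 had 209, 828 and 6 in D3, 45, 590 and 3 in SBM and 0, 29 and 0 in FM. A gene named from the same clone, si:dkeyp-73d8.9, had the same 3 highest libraries but was not off anywhere, at 684, 3252 and 83 in D3, 210, 2262 and 45 in SBM and 82, 259 and 9 in FM. The genes adgrl1.1 and sc:d0202 peaked in D3 library 2 at 552 and 473 counts. In 10 of the 13 genes the 3 liver-rich libraries lay above the 6 others. The set was drawn from genes on only within those 3 libraries, which favours this order, so nothing is read from the number.

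The summed level of the 13 genes was 161, 237 and 8.07 CPM in D3, 29.8, 182 and 6.83 CPM in SBM and 7.09, 14.4 and 1.33 CPM in FM. The 3 highest sums were in the 3 libraries with the largest liver marker share, which the way the set was drawn favours. The lowest sum, in FM library 3, did not fall in the library with the smallest summed share of the 18 markers, SBM library 3. The 18 markers took 0.44% of counts in FM library 3, against 0.237% in SBM library 3 and 0.417% in D3 library 3. A marker and an unlisted liver gene, picked after their values were seen, were lowest in FM library 3 by a narrow margin. The marker fabp10a had 1225 counts there and 1342 in SBM library 3, and the unlisted f2 had 187 and 195. The other markers are not given singly here, so nothing is read from these genes. None of the 18 liver markers is among the 39 genes. The part of liver tissue in these levels was not tested.

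Of the other 3 genes of that set, hp is described above, and paplnb and si:ch211-133n4.9 were nearly missing from D3 library 2, the library richest in liver markers. The gene paplnb encodes papilin, a protein of the extracellular matrix, and had counts of 1362, 2 and 14 in D3, 245, 391 and 165 in SBM and 61, 3 and 15 in FM. It varied with the type X collagen gene col10a1b, at 6750, 9 and 93 in D3, 1447, 1490 and 1028 in SBM and 336, 15 and 63 in FM. The mineralised tissue gene scpp7 had 363, 0 and 33 in D3, 78, 92 and 90 in SBM and 14, 7 and 3 in FM. Each SBM library lay above each FM library for these 3 genes, while D3 held both the highest and the lowest count of paplnb, col10a1b and scpp7. Both companion genes were picked after their values were seen. The related col10a1a, a listed skin marker, had 721, 2 and 6 in D3, 211, 290 and 72 in SBM and 17, 12 and 13 in FM. The whole skin marker list took 0.209 to 0.314% of counts in D3, 0.193 to 0.252% in SBM and 0.233 to 0.344% in FM. Counts of col10a1a are a small part of that share, which therefore does not show how this gene varied. The skin markers cyt1, cyt1l and krtt1c19e were at 0 in some library. The uncharacterised si:ch211-133n4.9 had 419, 0 and 72 in D3, 1, 1044 and 6 in SBM and 16, 201 and 9 in FM, with the groups overlapping throughout.

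The 7 remaining genes were on in other combinations of libraries, and 5 of them were the only genes of the 39 that were on in an FM library. The most marked were a pair of MHC class II genes. The class II molecule presents peptides to helper T cells and is built from an alpha and a beta chain. The gene listed as si:busm1-48c11.3 is mhc2dga in RefSeq, and its partner, also listed under a clone name, is mhc2dgb. By name they are the alpha and beta chain genes of 1 class II locus, and they are next to each other on the GRCz12tu assembly.

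The alpha chain gene mhc2dga had counts of 2739, 1 and 0 in D3, 538, 1 and 861 in SBM and 1, 1 and 979 in FM. The beta chain gene mhc2dgb had counts of 3103, 4 and 0 in D3, 532, 1 and 1039 in SBM and 1, 3 and 1549 in FM. Both genes were on in the same 4 libraries, D3 library 1, SBM libraries 1 and 3 and FM library 3, and held at most 4 counts in the other 5. No library of mhc2dga lay between on and off, and its lowest on library exceeded its highest off library 269.5-fold with 1 added to each count. The beta to alpha ratio of counts in the on libraries was 1.13 in D3, 0.989 and 1.21 in SBM and 1.58 in FM.

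Every group contained on and off libraries of this pair, so the split cut across D3, SBM and FM. The on libraries included 1 of the 2 richest in ovary markers, SBM library 1, and 1 of the 3 richest in liver markers, D3 library 1. Genes of class II presentation outside the pair included mhc2dab, cd74a and ciita, each counted in every library. By contrast, the class II genes mhc2dbb, mhc2dca, si:dkey-33b17.3 and si:busm1-228j01.6 held at most 2, 3, 13 and 1 counts in any library. Per length, mhc2dab stood at 168, 745 and 391 FPKM in D3, 143, 316 and 830 FPKM in SBM and 577, 297 and 319 FPKM in FM, while mhc2dga reached 103 FPKM in D3 library 1. The counts of cd74a, the invariant chain gene of class II assembly, were 23247 to 37490 in D3, 15502 to 34934 in SBM and 26279 to 27342 in FM. Those of ciita, the class II transactivator gene, were 425 to 827 in D3, 308 to 1074 in SBM and 404 to 599 in FM. Of 7 class II genes found in the table by name, 3 reached 10 CPM in at least 2 libraries, and this pair makes up 2 of those 3. Class II genes form a family of similar copies, and how the authors' counting shared reads between copies is not given in the sources used here, so the level of each copy is uncertain.

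Among the 10715 genes, 2 others separated the 4 libraries from the 5 in the same direction by at least 10-fold: mhc2dgb, and LOC103911540, which has no current RefSeq match. LOC103911540, picked after its values were seen, had counts of 6553, 6 and 4 in D3, 1305, 5 and 2476 in SBM and 17, 45 and 2499 in FM, and missed the rule because its lowest count was 4. In the opposite direction, cyp2x9, a cytochrome P450 gene, was the single one to separate the libraries by at least 2-fold. It had 500, 1825 and 2322 counts in D3, 531, 3451 and 831 in SBM and 2471, 2422 and 737 in FM, lower in the 4 libraries with the class II pair. At a margin of 1.2-fold the same direction also took in tapbp.1 and tapbp.2, genes of tapasin, which loads peptides on MHC class I. The gene tapbp.1 had 1102, 672 and 760 counts in D3, 1040, 517 and 1538 in SBM and 630, 817 and 1537 in FM. Some genes of such a search separate any 4 libraries from 5, and it gives no test.

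**Figure D4:**
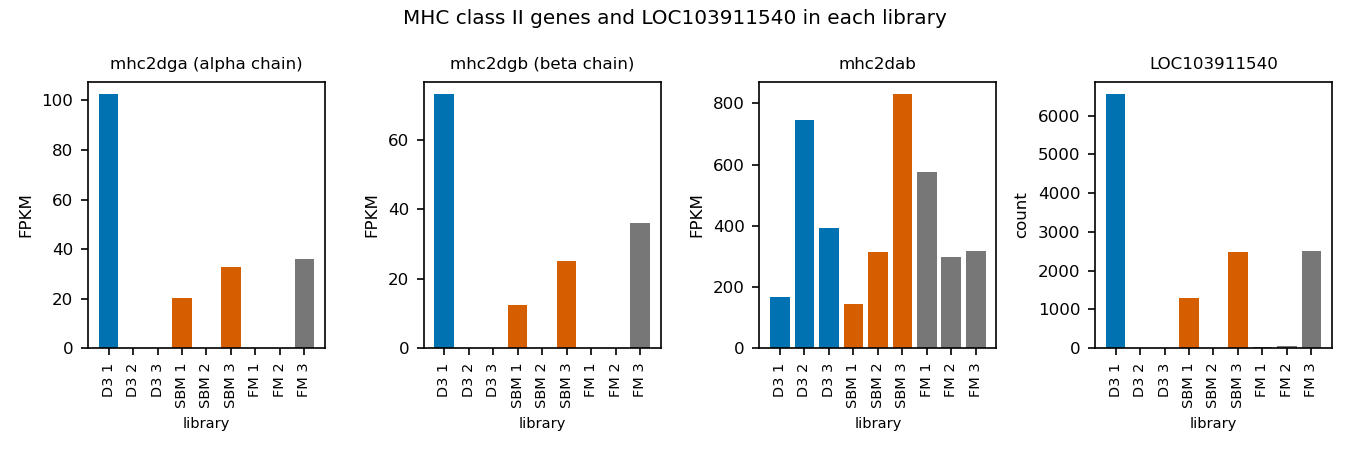
FPKM of mhc2dga, mhc2dgb and mhc2dab and counts of LOC103911540 in each library, coloured D3, SBM and FM from left to right; each panel has its own axis from 0. The alpha and beta chain genes and LOC103911540 are high in D3 library 1, SBM libraries 1 and 3 and FM library 3, while mhc2dab is present in all 9.

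The uncharacterised si:dkey-18p12.4 was the only one of the 39 genes split fully between 2 groups. Its counts were 2, 2 and 0 in D3, 325, 1171 and 4400 in SBM and 1168, 386 and 849 in FM. All D3 libraries were off and all FM libraries on, while SBM library 1, at 9.16 CPM, fell just short of on. The level was 0.0375 ± 0.0325 CPM in D3, 56.1 ± 62.3 CPM in SBM and 22.7 ± 11.6 CPM in FM (SD, n = 3 each). Summed over libraries, D3 held 4 counts and FM 2403, a ratio of D3 over FM of 0.00166 (exact 95% interval 0.000451 to 0.00424, counting error only). Its neighbours on the assembly were counted in every library, piga at 168, 168 and 689 in D3, 329, 108 and 225 in SBM and 164, 142 and 145 in FM. The neighbour on the other side, zgc:113314, had 898 to 1859 counts in D3, 354 to 1694 in SBM and 620 to 949 in FM. Of the 10715 genes, no other separated D3 from the remaining 6 libraries by at least 2-fold in either direction.

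The gene rnasel2 encodes a secreted ribonuclease of the ribonuclease A family. It had counts of 1, 3 and 0 in D3, 911, 2902 and 7 in SBM and 4, 3 and 2 in FM. It was on in SBM libraries 1 and 2 only, and all 3 SBM libraries lay above all D3 and FM libraries, though SBM library 3 did so by 3 counts over the highest FM library. Its relative rnasel3 was present in all libraries, at 3308, 18455 and 275 in D3, 562, 6910 and 121 in SBM and 177, 419 and 38 in FM. The high libraries of rnasel3 were the 3 rich in liver markers, whereas rnasel2 was off in D3 library 1. The relative rnasel4 had at most 1 count in any library.

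The pattern of zgc:171500 was the reverse, on in most libraries and missing from a few. It had counts of 0, 907 and 31 in D3, 555, 427 and 1 in SBM and 753, 663 and 215 in FM. The libraries without it, D3 library 1 and SBM library 3, were both on for the class II pair, but SBM library 1 was on for both. Its neighbours on the assembly were low, with LOC100329398 at 79 counts or fewer and si:ch73-213k20.5 at 43 or fewer in all libraries.

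A further uncharacterised si: gene, the first of the lower row in the plot of the 7 genes, had counts of 1, 2 and 16 in D3, 1067, 2 and 59 in SBM and 1, 1 and 1477 in FM. Its on libraries, SBM library 1 and FM library 3, have the second highest and the lowest ovary marker share of the 9. The gene next to it on the assembly, also named from that clone, was highest in the libraries richest in ovary markers, at 473, 371 and 7848 in D3, 7587, 177 and 1067 in SBM and 107, 179 and 34 in FM. These neighbours differed in which libraries held most of their counts. The gene si:ch211-160d14.9, a long noncoding RNA gene in RefSeq, had 56, 63 and 1 in D3, 537, 18 and 509 in SBM and 17, 17 and 348 in FM. Its 3 highest libraries were all on for the class II pair, but D3 library 1, which had the most counts of that pair, was not among them.

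**Figure D5:**
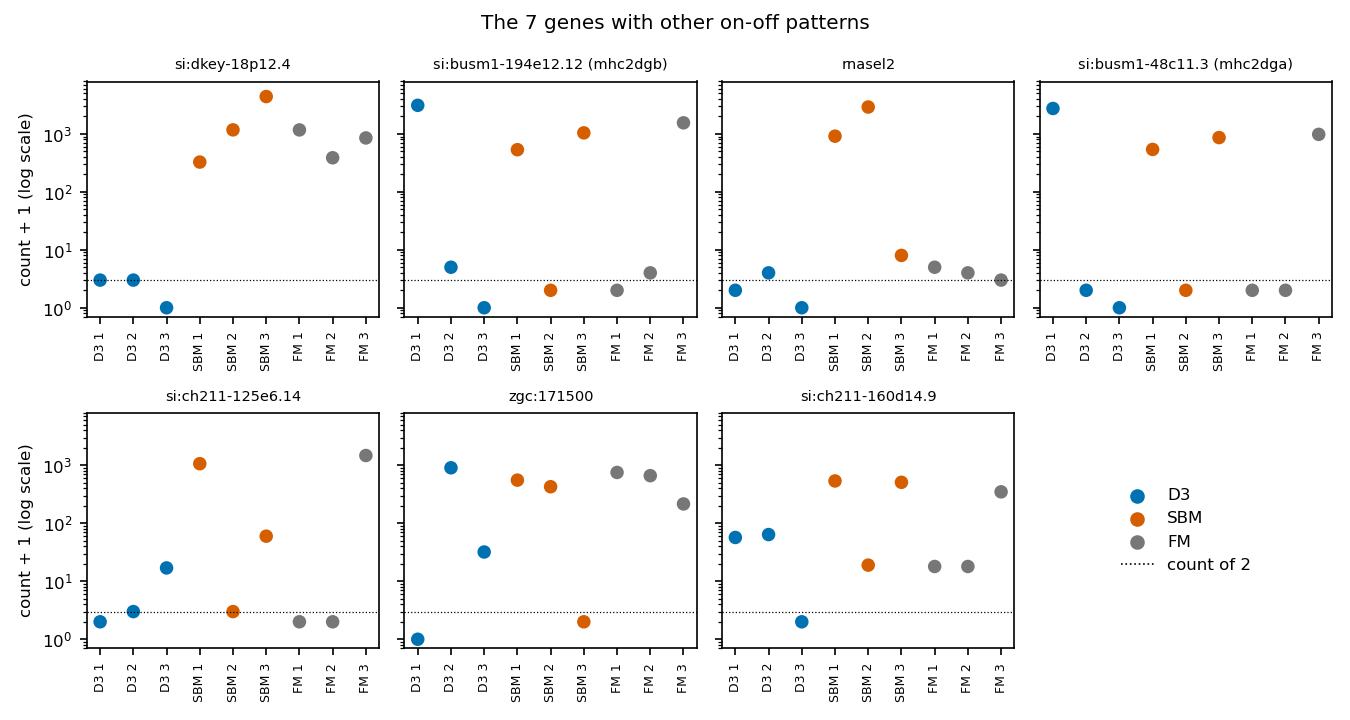
Counts plus 1 (log scale) of the 7 genes in each library, coloured D3, SBM and FM from left to right; the dotted line marks a count of 2. D3 lies below SBM and FM for si:dkey-18p12.4, while the class II genes split every group.

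Features that the rule did not read were set beside those of the 10715 genes. Of the 39 genes, 33 matched RefSeq by symbol (84.6%, against 88.4% of the 10715), 4 by an older name (10.3%, against 6.81%) and 2 not at all (5.13%, against 4.83%). Locus and clone names were common: 15.4% were LOC names and 23.1% si: names, against 3.61% and 7.43% of the 10715. Not all of these loci are uncharacterised, as the si: names include the genes that RefSeq lists as hwa, mhc2dga and mhc2dgb. Of the 39, 35 were protein-coding (89.7%, against 94.7%) and 2 were long noncoding RNA genes (5.13%, against 0.439%). The median gene length implied by the FPKM values was 1474 bases, against 2369 bases. Counts and CPM are not corrected for gene length, so the rule and this feature are not independent. Of 16 gene families searched by name, 14 held none of the 39 genes. The class II family held 2.

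Members seldom lay side by side. For the 37 matched genes, 74 neighbours were read from the assembly, and 56 of them had a name in the count table. Apart from the class II pair, no neighbour was among the 39, and gstcd beside lef1 was the only further neighbour on in exactly the same libraries. Neighbours on in more libraries could still peak in D3 library 3 and SBM library 1. For prr11 beside styxl1 these held 2212 and 2043 counts, and the next highest, SBM library 3, held 406. LOC110440097 and LOC100538023, on either side of LOC100334195, were also highest in that pair of libraries. LOC100537499 and LOC100334195 were separated by 3 genes, and 2 of those 3 were in the table. LOC100537499 had counts of 2, 36 and 1099 in D3, 794, 13 and 87 in SBM and 2, 6 and 5 in FM, and LOC100334195 had 12, 73 and 498 in D3, 434, 2 and 90 in SBM and 17, 6 and 0 in FM. Between them, zgc:175135 was highest in the same pair of libraries and had higher counts, with 1877, 1042 and 16312 in D3, 18925, 430 and 2631 in SBM and 647, 842 and 25 in FM. These 3 genes shared their 2 highest libraries, D3 library 3 and SBM library 1, and the next one, SBM library 3, while the order of the rest differed. The lowest count of zgc:175135 was 25.

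The thresholds cut through a continuous range. Just inside the upper one were dapk2b and lef1, with a second-highest level of 10.1 and 10.4 CPM, and just outside it si:ch211-212k18.5 and kcnc2 with 9.65 and 9.56 CPM. Of genes on in at least 2 libraries, 11 had a lowest count of 0, 13 of 1 and 15 of 2, and just outside the lower threshold 16 had a lowest count of 3 and 17 of 4.

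Comparisons between groups were read from an edgeR quasi-likelihood fit over all genes, in which 38 of the 39 genes passed the filter on low counts and rnasel2 did not. In D3 against SBM the fit called 0 of the 38 with an adjusted p under 0.05, beside 0.0% of 19450 genes. The gene si:dkey-18p12.4 had a log2 fold change of −10.34 ± 1.34 (SE), an unadjusted p of 4.02e-05 and an edgeR adjusted p of 0.781, and was the 1 of the 38 genes with an unadjusted p under 0.05 (2.07% of all genes). Unlike edgeR, DESeq2 called it, as 1 of the 38 (0.0257% of all genes), with an adjusted p of 3.1e-16. Across the 38 genes the median log2 fold change was 0.24, against 0.03 over all genes. The counts of the D3 and SBM libraries did not overlap for 2 of the 39 genes, si:dkey-18p12.4 and rnasel2, beside 2.73% of the 10715. Both were lower in D3, beside 1.25%, and none was higher, beside 1.48%.

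In D3 against FM edgeR called 0 of the 38 genes, beside 0.0% of all genes, and 22 had an unadjusted p under 0.05 (15.2% of all genes). DESeq2 called 15 (4.72% of all genes). The median log2 fold change of the 38 was 4.43, against 0.04 over all genes, and 34 were positive. In edgeR, styxl1 had 5.63 ± 1.71, topaz1 4.72 ± 1.59 and si:dkey-18p12.4 −9.38 ± 1.31, each with an adjusted p of 0.32. The libraries did not overlap for 13 genes, beside 38.8% of the 10715. They were 12 genes higher in D3, beside 32.3%, and si:dkey-18p12.4, lower in D3, beside 6.58%. The rule picks genes with a wide range over libraries, so these counts and medians follow from it in part and nothing is read from them.

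In SBM against FM edgeR again called 0 of the 38 genes, beside 0.0% of all genes, with 15 at an unadjusted p under 0.05 (8.94% of all genes) and 5 called by DESeq2 (1.22% of all genes). The median log2 fold change was 4.11, against −0.01 over all genes, and 35 were positive. The libraries did not overlap for 17 of the 39 genes, beside 15.0% of the 10715, all 17 higher in SBM, beside 11.7%, and none lower, beside 3.34%. As in D3 against FM, these counts and medians follow in part from the rule, and nothing is read from them. DESeq2 gave no adjusted p for 6 of the 38 genes in D3 against SBM, 6 in D3 against FM and 12 in SBM against FM. Among the 17 were rnasel2, paplnb, hp and 14 of the 19 genes on in D3 library 3 and SBM library 1. For the class II pair the values were far inside their error, with a log2 fold change of 0.09 ± 2.76 for mhc2dga and −0.41 ± 2.76 for mhc2dgb. The D3 and SBM comparisons with FM share the FM libraries, among them FM library 3, in which 24 of the 39 genes were off.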

How the data were processed

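Intestine RNA of 9 zebrafish libraries was sequenced by the authors, with 1.3 µg of total RNA per library per the labels' protocols. Raw counts per gene, in whole numbers, were deposited by the authors. The deposited FPKM table holds counts scaled by the authors by gene length and library total, and was used for levels per length. For the aligner, counter, strand setting, build and annotation, the sources used here name nothing, so reads of overlapping or antisense genes cannot be told apart and no coordinates are printed. Groups were read from the sample titles.

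CPM is the count times 1000000 over the column total. The 39 genes, the lists and the tests were chosen with earlier results of these data known. Named genes are those in the rule, the fully split gene, the highest levels, pairs of neighbours and list members, and every other gene named, non-members included, was picked after its values were seen.

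Counts were fitted in R 4.3.3 with edgeR 4.0.16 (quasi-likelihood test, filterByExpr with a minimum count of 10, TMM factors, all 9 libraries, 6 residual degrees of freedom, two-sided, Benjamini-Hochberg adjustment, threshold 0.05). DESeq2 1.42.0 was an alternative. The SE is the log2 fold change over the square root of F. Scripts were tested on simulated data. Names, neighbours and biotypes came from RefSeq (GRCz12tu). The planned search for near-identical protein copies was not run. Intervals cover counting error only, as no molecular identifiers are stated. No 2 libraries of a group agreed within counting noise (chi-square per degree of freedom at least 65.9). The result of 1 of the gene families searched is not reported here.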

Additional observations from a re-analysis of the deposited data

How the results depend on the processing

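The membership depended on its thresholds and on a few libraries. The 39 genes became 87 with a minimum of 5 CPM and 12 with 20 CPM, 11 when off meant a count of 0 and 87 when it meant 5 or fewer, 6 when 3 libraries had to be on, and 34 with TMM-scaled sizes. With 1 library left out the number was 17 to 39. It was 17 without SBM library 1, 18 without FM library 3 and 19 without D3 library 3. It was 17 without SBM library 1 and D3 library 3 together. Chosen after seeing the data, leaving out the 3 libraries richest in liver markers gave 23, and leaving out all 5 gave 3, mhc2dga, mhc2dgb and zgc:171500.

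The number of genes split fully between groups, 1, became 0 at 20 CPM, 0 with a count of 0 for off, 1 to 1 with 1 library left out, 4 without the liver-rich libraries, when D3 is a single library, and 0 without all 5, which leaves no D3 library. Genes whose groups did not overlap numbered 2 (2 to 6 with 1 library left out) in D3 against SBM, 13 (13 to 23) in D3 against FM and 17 (17 to 25) in SBM against FM. Without D3 library 3 they were 6 and 23 in the D3 comparisons, without SBM library 2 they were 6 in D3 against SBM, and without FM library 2 they were 20 in D3 against FM. Without SBM library 1 and D3 library 3 they were 6 in the first of these comparisons and 23 in D3 against FM.

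The edgeR fit called 0 genes in each comparison under 3 further scalings or filters and with each library left out, 0 to 0. DESeq2 called 5, 918 and 238 genes in D3 against SBM, D3 against FM and SBM against FM. Without the liver-rich libraries edgeR called 2053 genes in D3 against FM, where D3 is 1 library assumed to vary like the other groups. The cause of these shifts was not tested. No pairing of libraries by replicate number was seen. The correlation of same-numbered deviations ran from −0.578 to 0.519, and that of differently numbered ones from −0.651 to 0.708. These values cannot exclude a pairing, which larger differences between libraries could hide. The fit with the replicate number as a block called 0 genes in each comparison.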
